A study of Mus musculus with 36 samples.

Results

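The 9 genes described here encode enzymes, a transporter, a pump and a channel of creatine cycling and calcium cycling, the 2 energy-consuming cycles proposed to release heat in thermogenic fat without uncoupling protein 1. They were *Gatm*, *Gamt*, *Slc6a8*, *Ckb*, *Ckmt1*, *Ckmt2* and *Alpl* for creatine, and *Atp2a2* and *Ryr2* for calcium. Each symbol matched 1 gene of the GENCODE M21 annotation, and 55536 genes were listed in every library. Of the 9 genes, 5 had enough counts to be tested (*Gamt*, *Slc6a8*, *Ckb*, *Alpl* and *Atp2a2*), and the other 4 (*Gatm*, *Ckmt1*, *Ckmt2* and *Ryr2*) held between 0 and 7 counts in every library.

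The data were gene counts from total RNA sequencing of 36 libraries of mouse brown pre-adipocyte lines, collected at days 0, 2 and 6 of differentiation. All lines came from 1 clonal wild-type line in which *Rxra*, the gene of the nuclear receptor RXRα, had been disrupted with Cas9. The 2 *Rxra*-/- clones, 48 and 66, were transduced with a retrovirus that carried either wild-type *Rxra* (*Rxra*WT) or *Rxra* with an alanine in place of the serine that insulin signalling phosphorylates (*Rxra*SA). Each clone, genotype and day had 3 libraries, which gave 12 libraries per day and 6 per genotype and day. Confluent cells (day 0) were in medium with insulin and triiodothyronine, received dexamethasone, isobutylmethylxanthine and indomethacin in addition until day 2, and were then kept in the first medium until day 6. Clone 48 was sequenced in pool 1 and clone 66 in pool 2, so that clone and pool cannot be told apart. The submitters' design text calls the 3 replicates technical whereas the methods speak of independent replicates, and the p-values below measure the spread between these libraries only.

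Creatine is made in 2 steps, by the amidinotransferase GATM and the methyltransferase GAMT, and is taken up by the transporter SLC6A8. Creatine kinases, CKB in the cytosol and CKMT1 and CKMT2 in mitochondria, charge it to phosphocreatine, and the alkaline phosphatase TNAP, encoded by *Alpl*, can hydrolyse phosphocreatine so that the cycle runs again at the cost of ATP. In calcium cycling, the pump SERCA2, encoded by *Atp2a2*, moves calcium into the endoplasmic reticulum at the cost of ATP, and channels such as the ryanodine receptor RYR2 let it leak back.

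The libraries held from 11351078 to 24349263 counts (median 18338726). *Rxra* was expressed in every library, with log2 fold changes of *Rxra*SA against *Rxra*WT of -0.07, -0.03 and 0.03 on days 0, 2 and 6 (adjusted p = 1 on each day, edgeR). The summed level of 6 adipocyte markers had medians of 121.7, 3275 and 7163 CPM (counts divided by TMM-scaled library size) on these days. Between days 0 and 6, 6 of 6 rose, as did 32.9% of all genes tested. The 8 brown adipocyte markers were much lower, with median sums of 14.2, 26.8 and 76.9 CPM. Of these 8, 5 had enough counts to be tested, and 5 of 5 were higher at day 6 than at day 0. A gene near 0 at day 0 could be tested only through a later day, as *Cox8b* with 0 to 5 counts at day 0 and 453 to 889 at day 6. For such a gene a rise was nearly fixed in advance, so this count is no support for a rise. *Ucp1*, the gene of uncoupling protein 1, had 0 or 1 count at day 0, up to 2 at day 2 and 2 to 5 at day 6. Most of the brown marker sum at day 6 was *Cox8b*, *Ppargc1a* and *Cox7a1*, with medians of 37.3, 22.9 and 12.9 CPM. At day 0 these genes had medians of 0.102, 13.6 and 0.249 CPM. *Cidea*, *Elovl3*, *Prdm16* and *Dio2* had medians of at most 0.519 CPM at day 6. Adipocyte markers and the brown marker sum thus rose with differentiation, whereas *Ucp1*, which defines the active brown fat cell, was at or near 0 in all 36 libraries. Summed markers of cardiac muscle, endothelium, macrophages and neurons had medians of at most 8.09 CPM on any day.

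Levels per length were compared between the genes as RPKM, that is, TMM-scaled CPM per kilobase of exon. At day 0 *Gamt* was highest with 24.8 ± 3.79 RPKM (mean ± SD, n = 12), followed by *Atp2a2* with 23.1 ± 8.34, *Slc6a8* with 7.33 ± 0.463, *Ckb* with 3.22 ± 0.690 and *Alpl* with 0.711 ± 0.493. The ranges of *Gamt* and *Atp2a2* overlapped, and each of the other neighbours in this order was separate. At day 6 the order was *Atp2a2* (34.7 ± 12.4), *Gamt* (17.7 ± 1.43), *Alpl* (10.6 ± 3.55), *Ckb* (5.19 ± 1.72) and *Slc6a8* (2.81 ± 0.598), in which the ranges of every pair of neighbours overlapped. *Alpl* moved from the fifth place to the third, and *Slc6a8* from the third to the fifth.

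Placed among all genes with a count, *Atp2a2* stood above 93.2% of them at day 0 and 95.1% at day 6, and *Gamt* above 93.8% and 90.1%. *Alpl* rose from the 58.8th to the 84.7th percentile between these days. The 4 genes that were not tested had mean levels of at most 0.0494 RPKM on any day.

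**Figure D1:**
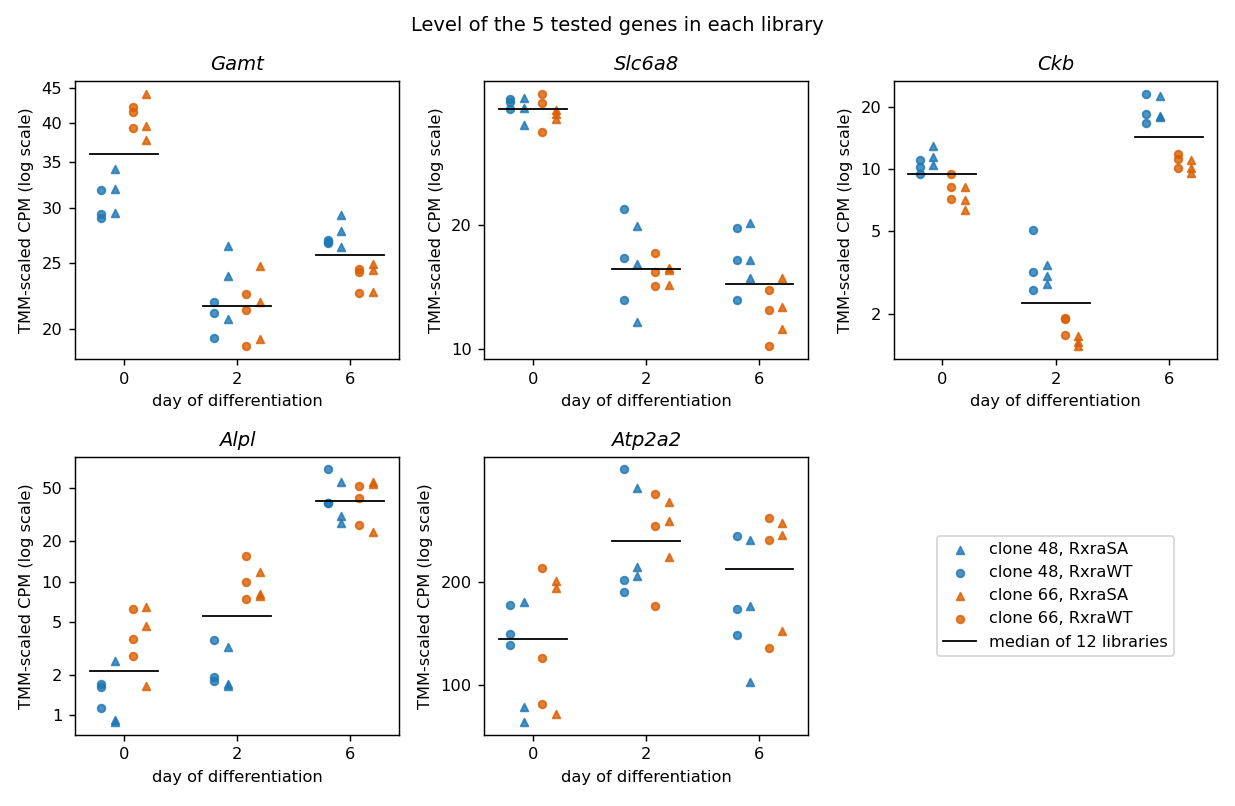
TMM-scaled CPM (log axis, a separate scale for each gene) of the 5 tested genes at days 0, 2 and 6, with 1 point per library, colours for clones, symbols for genotypes and a line at the median of 12 libraries. *Ckb* dipped at day 2 (median 2.25 CPM against 9.44 at day 0 and 14.2 at day 6), *Slc6a8* fell and stayed low, *Alpl* climbed to a median of 40.2 CPM, and the symbols of both genotypes mixed throughout.

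Between days 0 and 2, all 5 tested genes changed in edgeR's quasi-likelihood test (2 rose and 3 fell), as did 73.3% of the 16723 genes tested (35.8% rose and 37.5% fell). Between days 2 and 6, 3 of the 5 rose and none fell, against 62.0% of all genes tested changing (31.9% up and 30.1% down). Between days 0 and 6, 3 rose and 2 fell, against 68.3% of all genes tested (32.9% up and 35.4% down). Most of the transcriptome therefore changed with time, and the number of changed genes among the 5 did not set them apart. The size and the direction of each gene's change are described below.

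**Figure D2:**
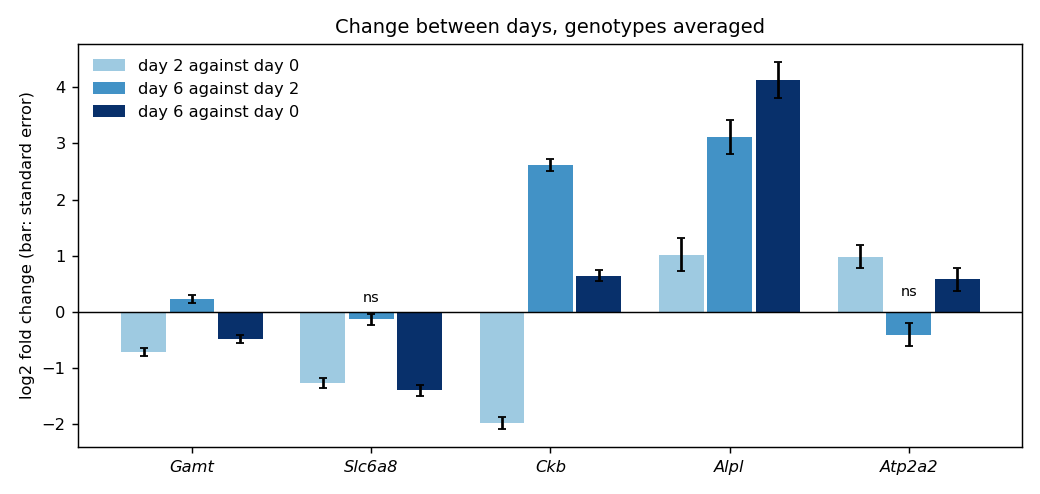
Log2 fold change of the 5 tested genes between days, averaged over genotypes with a term for the clone, with bars for the standard error (36 libraries in the fit). Values marked ns had an adjusted p of at least 0.05, namely the change of *Slc6a8* (-0.13) and of *Atp2a2* (-0.40) between days 2 and 6.

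Creatine synthesis was represented by its second step only. *Gatm* (ENSMUSG00000027199.14, chr2:122594467-122611303, minus strand), whose product makes guanidinoacetate from arginine and glycine, had 2 counts in all 36 libraries together, 1 in a library of day 0 and 1 in a library of day 2. A count of 3 in a library would have corresponded to between 0.0384 and 0.0810 RPKM, so that a level above this was not seen on any day. *Gamt* (ENSMUSG00000020150.13, chr10:80258151-80261012, minus strand), whose product methylates guanidinoacetate to creatine, had between 298 and 1081 counts per library.

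The level of *Gamt* lay between 29.0 and 44.1 CPM at day 0 (median 35.97), between 18.9 and 26.4 at day 2 (median 21.6) and between 22.6 and 29.3 at day 6 (median 25.6). All libraries of day 0 were above all libraries of day 2, whereas days 2 and 6 overlapped, as did days 0 and 6. *Gamt* fell by 0.72 on the log2 scale from day 0 to day 2 (SE 0.0744, adjusted p = 1.52e-10, edgeR) and rose by 0.23 from day 2 to day 6 (SE 0.0743, adjusted p = 0.00704, edgeR). Over the 12 pairs of libraries with the same line and replicate number, it was lower at day 2 than at day 0 in 12 and higher at day 6 than at day 2 in 11. Day 6 remained below day 0 in 12 of 12, by 0.48 on the log2 scale. Within clones, the rise from day 2 to day 6 passed the test in clone 48 (0.30, adjusted p = 0.00153, edgeR) and not in clone 66 (0.16, adjusted p = 0.0871, edgeR).

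*Slc6a8* (ENSMUSG00000019558.14, chrX:73673150-73682502, plus strand) encodes the creatine transporter of the plasma membrane. It lay between 33.6 and 41.6 CPM at day 0 (median 38.3), between 11.6 and 21.9 at day 2 (median 15.6) and between 10.1 and 20.2 at day 6 (median 14.4). The libraries of day 0 stood apart from those of both later days, which overlapped with each other. *Slc6a8* fell by 1.26 on the log2 scale from day 0 to day 2 (SE 0.0918, adjusted p = 1.92e-14, edgeR). Its value from day 2 to day 6 was -0.13 (SE 0.0917, adjusted p = 0.212, edgeR), with a lower level at day 6 in 8 of 12 same-numbered pairs. *Gamt* and *Slc6a8*, the synthesis enzyme and the transporter, were thus both lower at day 6 than at day 0. In bulk RNA, fewer cells that express a gene and less RNA of that gene per cell cannot be told apart.

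Of the creatine kinase genes, *Ckb* (ENSMUSG00000001270.9, chr12:111669361-111672338, minus strand) was the one with more than a few counts. It lay between 6.36 and 13.0 CPM at day 0 (median 9.44), between 1.39 and 5.08 at day 2 (median 2.25) and between 9.55 and 23.1 at day 6 (median 14.2). Every library of day 2 was below every library of days 0 and 6, and in each clone every library of day 6 was above every library of day 0. *Ckb* fell 3.91-fold from day 0 to day 2 (log2 fold change -1.97, SE 0.106, adjusted p = 5.83e-18, edgeR) and rose 6.11-fold from day 2 to day 6 (log2 fold change 2.61, SE 0.107, adjusted p = 8.71e-21, edgeR). The net rise from day 0 to day 6 was 0.64 on the log2 scale (SE 0.0975, adjusted p = 5.04e-07, edgeR), and it was seen in 12 of 12 same-numbered pairs. The counts at day 2 were between 27 and 82 per library, which limits the precision there.

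*Ckmt1* (ENSMUSG00000000308.14, chr2:121357714-121363737, plus strand) had 44 counts in all, spread over 24 libraries, with at most 7 in one. By genotype and day, its 6 *Rxra*WT libraries summed to 14, 8 and 5 counts on days 0, 2 and 6, and its 6 *Rxra*SA libraries to 9, 3 and 5. *Ckmt2* (ENSMUSG00000021622.3, chr13:91853387-91876885, minus strand) had 29 counts over 17 libraries, of which 18 were at day 0, 6 at day 2 and 5 at day 6. Both genes were around or below the level of 3 counts in nearly every library, and no fold change is given for them. In a fit without the filter on low counts, neither reached an adjusted p of 0.05 between days, and the smallest was 0.0693 for *Ckmt2* at day 6 against day 0 (edgeR).

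Within the creatine kinase family (*Ckb*, *Ckm*, *Ckmt1* and *Ckmt2*), *Ckb* held 96.8% ± 1.93 (SD, n = 12) of the RNA per length at day 0, 94.2% ± 7.41 at day 2 and 99.0% ± 0.509 at day 6. The lowest share, 75.1%, was in a library of day 2, where *Ckb* itself had few counts. *Ckm*, the kinase of skeletal muscle, had at most 3 counts in any library. The summed level of 9 skeletal muscle markers also fell and rose. Its median was 8.07 CPM at day 0 (range 4.40 to 10.2), 0.909 at day 2 (0.455 to 1.36) and 8.15 at day 6 (5.95 to 12.1). Most of that sum was *Actn3* at day 0 (median 5.16 CPM, then 0.276 and 0.224) and *Acta1* at day 6 (medians of 2.20, 0.505 and 7.85 CPM over the days), while *Myod1* and *Myh1* had 0 counts in every library and *Myog* at most 4. *Actn3* thus fell and stayed low, whereas *Acta1* fell and rose. Of the 9 markers 2 were tested, and 1 of them rose from day 2 to day 6 (edgeR). The part of these genes in the course of *Ckb* was not tested.

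**Figure D3:**
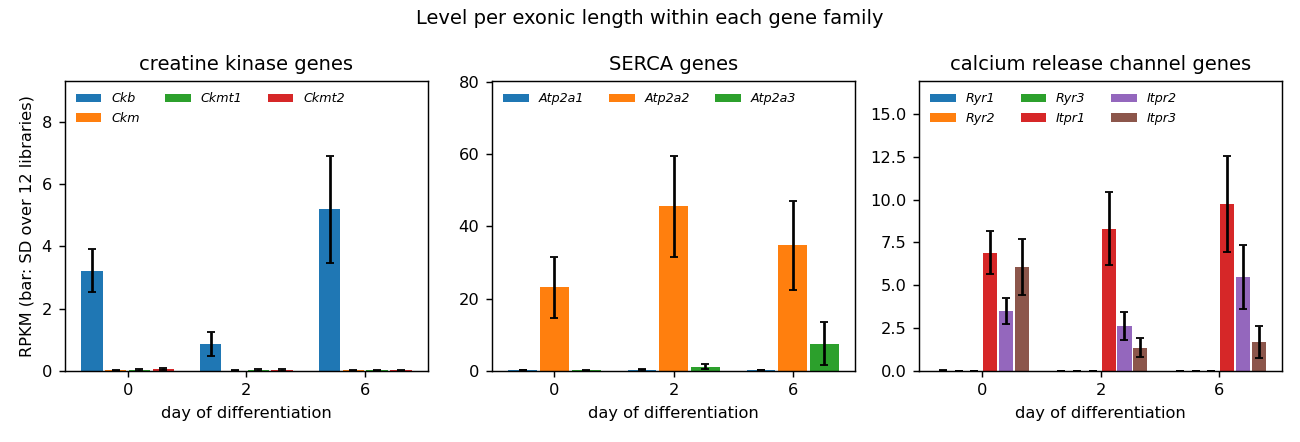
Mean RPKM with SD over 12 libraries per day for the genes of the creatine kinase family, the SERCA family and the calcium release channels. *Ckb* and *Atp2a2* gave nearly all RNA of their families at days 0 and 2, *Atp2a3* reached 7.54 RPKM at day 6, and the bars of *Ryr1*, *Ryr2* and *Ryr3* do not rise above the axis beside those of *Itpr1*, *Itpr2* and *Itpr3*.

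The 250 bases before the RefSeq start sites of *Ckb* and *Gamt* are shown because both genes fell by day 2 while only *Ckb* then rose past its level of day 0. The windows are from GRCm38.p6, the assembly of the count files, and hold no GENCODE exon. They were searched on both strands for the TATA box, spelled TATAAA, and for the CCAAT box, spelled by its own name. The GC box, a site of the general activator SP1, was searched as GGGCGG, and the cAMP response element as TGACGTCA. For nuclear receptors, the search took the core site spelled AGGTCA, the longer site of the estrogen-related receptors (ERR site), spelled TCAAGGTCA, and DR1, a direct repeat of the core site with 1 base between the copies, which RXR binds with its partners. Matches are in capitals. The core site is contained in the ERR site and in DR1.
*Ckb*, chr12:111672339-111672588, minus strand: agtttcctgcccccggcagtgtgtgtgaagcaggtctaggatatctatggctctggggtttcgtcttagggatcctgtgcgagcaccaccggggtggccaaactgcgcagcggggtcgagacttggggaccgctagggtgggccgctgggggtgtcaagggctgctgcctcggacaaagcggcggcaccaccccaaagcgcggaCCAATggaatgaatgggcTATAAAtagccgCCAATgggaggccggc
*Gamt*, chr10:80261013-80261262, minus strand: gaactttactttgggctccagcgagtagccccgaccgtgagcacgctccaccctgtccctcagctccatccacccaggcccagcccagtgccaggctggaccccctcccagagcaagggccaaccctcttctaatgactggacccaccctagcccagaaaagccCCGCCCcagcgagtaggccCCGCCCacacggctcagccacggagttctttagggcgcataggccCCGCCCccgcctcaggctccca
The *Ckb* window held a TATA box at position -28 between CCAAT boxes at -46 and -16, counted from the start site, with 16 CpG dinucleotides. The *Gamt* window held 3 GC boxes on the reverse strand and 12 CpG dinucleotides, and neither TATA nor CCAAT box. Of 32851 windows of this length, 12.4% held a TATA box, 33.8% a CCAAT box and 32.7% a GC box. Neither window held a cAMP response element (1.55% of windows), a core site (14.0%), an ERR site (0.387%) or DR1 (0.0335%), which says only that these letters were not in these bases.

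*Alpl* (ENSMUSG00000028766.10, chr4:137741733-137796384, minus strand) encodes the phosphatase of phosphocreatine and, in bone, the one that removes pyrophosphate. It had the largest change between days 0 and 6 of the 5 tested genes. It lay between 0.891 and 6.44 CPM at day 0 (median 2.14), between 1.67 and 15.5 at day 2 (median 5.55) and between 23.6 and 68.9 at day 6 (median 40.2). Every library of day 6 was above every library of the earlier days, which overlapped with each other. *Alpl* rose by 1.02 on the log2 scale from day 0 to day 2 (SE 0.297, adjusted p = 0.00264, edgeR) and by 3.11 from day 2 to day 6 (SE 0.300, adjusted p = 4.75e-11, edgeR). Within clones, the first rise passed the test in clone 66 (1.23, adjusted p = 0.00127, edgeR) and not in clone 48 (0.65, adjusted p = 0.127, edgeR). The difference between the clones in this rise did not pass (adjusted p = 0.608, edgeR). Day 6 was 17.5-fold above day 0 (log2 fold change 4.13, SE 0.314, adjusted p = 7.23e-14, edgeR), with ratios between 7.12 and 39.8 over the 12 same-numbered pairs.

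The summed level of 7 osteoblast and chondrocyte markers had a median of 7.56 CPM at day 0 (range 5.16 to 11.4), 1.53 at day 2 (0.829 to 2.51) and 2.35 at day 6 (1.72 to 4.01). *Runx2* had medians of 7.21, 1.39 and 1.29 CPM over the days, and *Bglap*, *Ibsp* and *Dmp1* had at most 3 counts in any library. *Sp7*, a factor of osteoblast differentiation, had 0 to 8 counts at day 0, 0 to 3 at day 2 and 5 to 26 at day 6. Of the 2 tested genes of this list, 1 rose and 1 fell between days 0 and 6, and 1 rose and none fell between days 2 and 6 (edgeR). The part of these genes in the rise of *Alpl* was not tested.

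RefSeq lists 2 start sites of *Alpl*, and the 250 bases before each are shown because the gene count cannot tell from which of them the RNA of day 6 began.
*Alpl* upstream start, chr4:137796385-137796634, minus strand: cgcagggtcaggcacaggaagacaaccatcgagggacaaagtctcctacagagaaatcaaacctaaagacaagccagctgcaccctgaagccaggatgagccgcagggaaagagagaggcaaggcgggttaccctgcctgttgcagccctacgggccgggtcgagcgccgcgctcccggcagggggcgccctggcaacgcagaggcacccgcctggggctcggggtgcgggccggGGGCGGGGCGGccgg
*Alpl* downstream start, chr4:137766476-137766725, minus strand: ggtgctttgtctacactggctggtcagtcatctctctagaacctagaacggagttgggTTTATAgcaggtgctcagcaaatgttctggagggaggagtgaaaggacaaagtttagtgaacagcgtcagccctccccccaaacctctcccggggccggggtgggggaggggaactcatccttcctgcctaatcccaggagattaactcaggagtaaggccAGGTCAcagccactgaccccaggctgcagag
The window of the upstream start had 20 CpG dinucleotides and 2 GC boxes that share 1 base, at -15 and -10. The window of the downstream start had 4 CpG dinucleotides, a nuclear receptor core site at -31 and a TATA box on the reverse strand at -192. Neither held DR1, an ERR site or a cAMP response element.

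On the calcium side, *Atp2a2* (ENSMUSG00000029467.15, chr5:122453513-122502225, minus strand) had between 1062 and 6890 counts per library. It lay between 77.8 and 219.7 CPM at day 0 (median 135.8), between 170.1 and 427.0 at day 2 (median 263.7) and between 101.7 and 307.2 at day 6 (median 218.2). The ranges of the 3 days overlapped, and the libraries of a day were spread widely. *Atp2a2* rose by 0.99 on the log2 scale from day 0 to day 2 (SE 0.205, adjusted p = 6.4e-05, edgeR) and was still 0.59 above day 0 at day 6 (SE 0.204, adjusted p = 0.0116, edgeR). With library size alone as the scaling, the value at day 6 against day 0 was 0.39 (adjusted p = 0.0745, edgeR). Within a single clone it did not pass, with 0.53 in clone 48 (adjusted p = 0.146, edgeR) and 0.65 in clone 66 (adjusted p = 0.0701, edgeR).

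Much of this spread was shared by libraries with the same replicate number. In 12 of 12 groups of clone, genotype and day, the library numbered 3 had the highest level of *Atp2a2* of the 3 replicates, which held for 1.44% of the 16723 genes tested. For *Alpl* this was so in 11 of 12 groups, as for 4.21% of the genes in 11 or more. The library numbered 3 also had the highest total count in 11 of the 12 groups, and the part of this in the level of *Atp2a2* was not tested. This count of groups was made after the values had been seen. From day 2 to day 6 the log2 fold change was -0.40 (SE 0.204, adjusted p = 0.0868, edgeR). With the replicate number as a block, which takes it as linked across days, it was -0.42 (SE 0.0924, adjusted p = 0.000166, edgeR), so that the fall passed the test in that fit. In the fit without a block that left out the first *Rxra*WT library of clone 66 at day 2, it was -0.47 (adjusted p = 0.0442, edgeR). Over the same-numbered pairs, *Atp2a2* was higher at day 2 than at day 0 in 12 of 12, lower at day 6 than at day 2 in 12 of 12, and higher at day 6 than at day 0 in 12 of 12.

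The exons of *Atp2a2* share 83 bases (1.36% of its length) with *Gm43361* on the opposite strand. *Gm43361* had 66 to 176 counts per library, at most 7.82% of those of *Atp2a2*, and the counting did not use the strand.

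Among the SERCA pumps, *Atp2a2* held 98.1% ± 0.482 (SD, n = 12) of the RNA per length at day 0, 97.0% ± 0.745 at day 2 and 83.6% ± 7.57 at day 6. The fall of its share at day 6 came with *Atp2a3*, the gene of SERCA3, whose share was 0.787%, 2.35% and 15.7% on the 3 days. *Atp2a3* lay between 0.287 and 2.15 CPM at day 0 (median 0.706), between 2.28 and 12.3 at day 2 (median 5.49) and between 6.39 and 92.4 at day 6 (median 31.1), and the ranges of days 2 and 6 overlapped. It rose 38.5-fold from day 0 to day 6 (log2 fold change 5.27, SE 0.318, adjusted p = 1.47e-16, edgeR). At day 6 it was 3.74-fold higher in clone 66 than in clone 48 (adjusted p = 0.000259, edgeR), and the share of *Atp2a2* was 76.8% ± 2.53 (SD, n = 6) in clone 66 and 90.5% ± 2.61 in clone 48. *Atp2a1*, the pump of fast skeletal muscle, had mean shares between 0.653% and 1.08% of the family.

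*Ryr2* (ENSMUSG00000021313.16, chr13:11553102-12106945, minus strand), the ryanodine receptor best known from heart, had 2 counts in all 36 libraries. Its exons span 28790 bases, and 3 counts would have corresponded to between 0.004 and 0.00845 RPKM. *Ryr1* and *Ryr3* each had a mean share below 0.1% of the calcium release channel RNA. The inositol trisphosphate receptor genes, which encode the other calcium release channels of the endoplasmic reticulum, gave the rest. *Itpr1* held 42.1% ± 4.26 (SD, n = 12) at day 0, 67.9% ± 2.17 at day 2 and 58.3% ± 2.74 at day 6, *Itpr2* held 21.2%, 21.1% and 32.3%, and *Itpr3* held 36.7%, 10.9% and 9.37%. *Itpr3* fell by 1.87 on the log2 scale from day 0 to day 6 (adjusted p = 4.53e-09, edgeR) and *Itpr2* rose by 0.65 (adjusted p = 0.000524, edgeR).

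**Figure D4:**
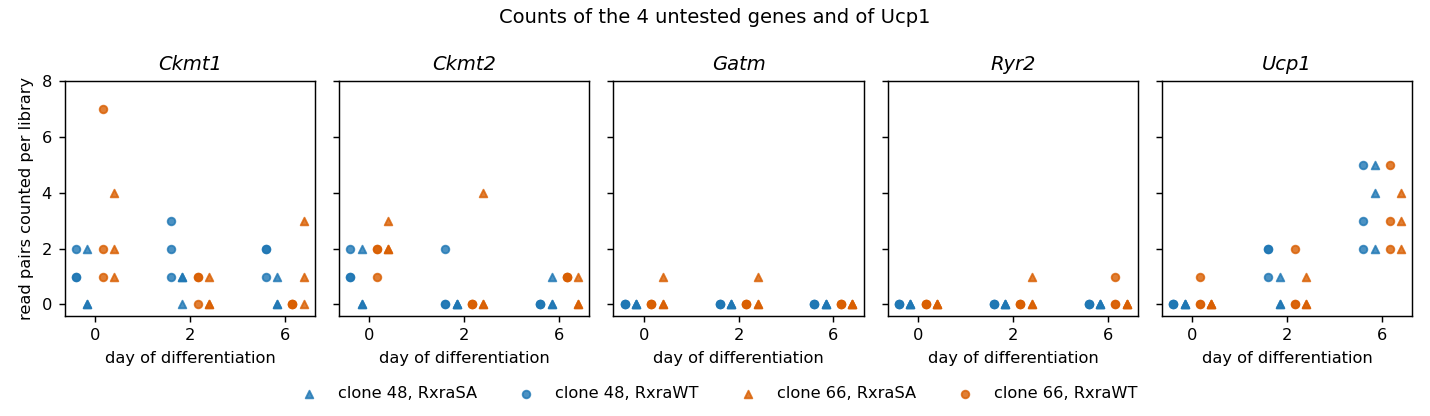
Read pairs counted per library for the 4 genes that were not tested and for *Ucp1* at days 0, 2 and 6, with colours for clones and symbols for genotypes. *Gatm* and *Ryr2* were at 0 or 1, *Ckmt1* reached 7 and *Ckmt2* 4, and *Ucp1* had 2 to 5 counts in each of the 12 libraries of day 6.

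The comparison of *Rxra*SA with *Rxra*WT asked whether loss of the phosphorylated serine changed RNA levels on any day. None of the 5 tested genes passed the test on any day, and none of the 16723 genes tested did either (0% called, edgeR). With the replicate number as a block within each day, 1 of the 16723 genes, none of the 5, was lower in *Rxra*SA at day 2. At an unadjusted p under 0.05, edgeR gave 139, 162 and 125 genes on days 0, 2 and 6 (0.831%, 0.969% and 0.747%), none of them among the 5, and DESeq2 called 0 of the 5 on each day. Without any difference, a share of about 0.05 would be met by a test whose errors fit the spread. The shares here and in the genotype comparisons below were smaller, so this unpaired test was cautious. Low shares are therefore no sign of equal levels. The largest difference among the 5 was that of *Ckb* at day 2, by -0.25 on the log2 scale (SE 0.157, unadjusted p = 0.114, edgeR). *Ckb* there lay between 1.58 and 5.08 CPM in *Rxra*WT (median 2.25) and between 1.39 and 3.42 in *Rxra*SA (median 2.17), and was lower in *Rxra*SA in 5 of 6 same-numbered pairs. The ranges of the genotypes overlapped for each of the 5 genes on each day. How often this held over all genes tested was not counted, so nothing is concluded from it.

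At day 6, *Ckb* had a median of 14.2 CPM in *Rxra*WT (range 10.1 to 23.1) and 14.4 in *Rxra*SA (9.55 to 22.5). *Alpl* had a median of 40.2 CPM in *Rxra*WT (26.5 to 68.9) and 42.2 in *Rxra*SA (23.6 to 55.5), with a log2 fold change of -0.20 (SE 0.374). *Atp2a2* had a median of 216.5 CPM in *Rxra*WT (128.4 to 307.2) and 218.2 in *Rxra*SA (101.7 to 297.7), with a log2 fold change of -0.03 (SE 0.287). *Gamt* and *Slc6a8* had log2 fold changes of 0.03 (SE 0.105) and 0.07 (SE 0.130). In this fit, which did not pair libraries by replicate number, standard errors were smaller for *Gamt*, *Slc6a8* and *Ckb* than for *Alpl* and *Atp2a2*. Spread shared by same-numbered libraries of both genotypes is part of these errors, so they are not the bounds of a paired comparison. A p that misses the threshold does not show equal levels. No difference between genotypes in the change over time passed the test for any of the 5 genes between any pair of days (0% of all genes called, edgeR), with 144, 153 and 128 genes at an unadjusted p under 0.05 for days 0 to 2, 2 to 6 and 0 to 6 (0.861%, 0.915% and 0.765%). DESeq2 also called 0 of the 5. No difference between the clones in the effect of genotype passed on any day (0% called, edgeR), with 283, 214 and 200 genes at an unadjusted p under 0.05 (1.69%, 1.28% and 1.20%), and DESeq2 again called 0 of the 5. At day 0, 3 of the 16723 genes were called with the replicate block and 5 of 36853 without a filter, none of them among the 5. In the fit without a filter, *Gatm*, *Ckmt1*, *Ckmt2* and *Ryr2* were called in none of the comparisons of days, genotypes or clones.

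Between the clones, more genes passed the test. At day 0, 3 of the 5 tested genes differed between clone 66 and clone 48, as did 23.7% of all genes tested. At day 2, 2 of the 5 differed, against 30.0%, and at day 6, 2 of the 5, against 26.2%. Since each clone was sequenced in its own pool, a difference between clones cannot be told apart from one between pools. The count of *Rxra*, which does not separate the re-expressed copy from RNA of the disrupted gene, was lower in clone 66 at day 0 (log2 fold change -0.54, SE 0.157, adjusted p = 0.0117, edgeR). At days 2 and 6 the values were -0.11 (adjusted p = 0.663, edgeR) and -0.36 (adjusted p = 0.096, edgeR), which did not pass.

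*Ckb* was lower in clone 66 on each day. At day 0 it lay between 6.36 and 9.48 CPM in clone 66 (median 7.66) and between 9.41 and 13.0 in clone 48 (median 10.7), ranges that overlapped only at their ends. Log2 fold changes on days 0, 2 and 6 were -0.49 (SE 0.125, adjusted p = 0.00365, edgeR), -1.04 (SE 0.143, adjusted p = 1.42e-06) and -0.87 (SE 0.123, adjusted p = 3.13e-06). At days 2 and 6 every library of clone 66 was below every library of clone 48, with medians of 1.57 and 3.11 CPM at day 2 and of 10.6 and 18.2 CPM at day 6.

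*Alpl* was higher in clone 66 at days 0 and 2 and reached the same range as in clone 48 at day 6. At day 2 it lay between 7.45 and 15.5 CPM in clone 66 (median 8.96) and between 1.67 and 3.66 in clone 48 (median 1.87), without overlap. Log2 fold changes over the days were 1.51 (SE 0.352, adjusted p = 0.00185, edgeR), 2.09 (SE 0.338, adjusted p = 1.72e-05) and -0.03 (SE 0.295, adjusted p = 0.961). At day 6, clone 66 lay between 23.6 and 55.5 CPM (median 46.8) and clone 48 between 27.6 and 68.9 (median 38.5).

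*Gamt* was 1.31-fold higher in clone 66 at day 0 (adjusted p = 0.000223, edgeR), where clone 66 lay between 37.7 and 44.1 CPM and clone 48 between 29.0 and 34.2. At day 6 the order was turned, with 22.6 to 24.9 CPM in clone 66 and 26.3 to 29.3 in clone 48, again without overlap. That log2 fold change of -0.19 did not pass the test (adjusted p = 0.0591, edgeR), and it passed with library size alone (adjusted p = 0.00963), with a threshold of 1 CPM in 6 or more libraries (adjusted p = 0.0387) and in DESeq2 (adjusted p = 0.0314). At day 6 *Slc6a8* was lower in clone 66 (log2 fold change -0.42, SE 0.128, adjusted p = 0.0139, edgeR), with overlapping ranges of 10.1 to 14.9 CPM and 13.2 to 20.2. This call was lost without the third *Rxra*WT library of clone 48 at day 6 (adjusted p = 0.0525), without the second *Rxra*SA library of clone 66 at day 6 (adjusted p = 0.0618) and without the filter on low counts (adjusted p = 0.0705, edgeR). *Atp2a2* had log2 fold changes of 0.22, 0.07 and 0.34 on the 3 days, with standard errors of 0.305 or 0.306, and passed on none.

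**Figure D5:**
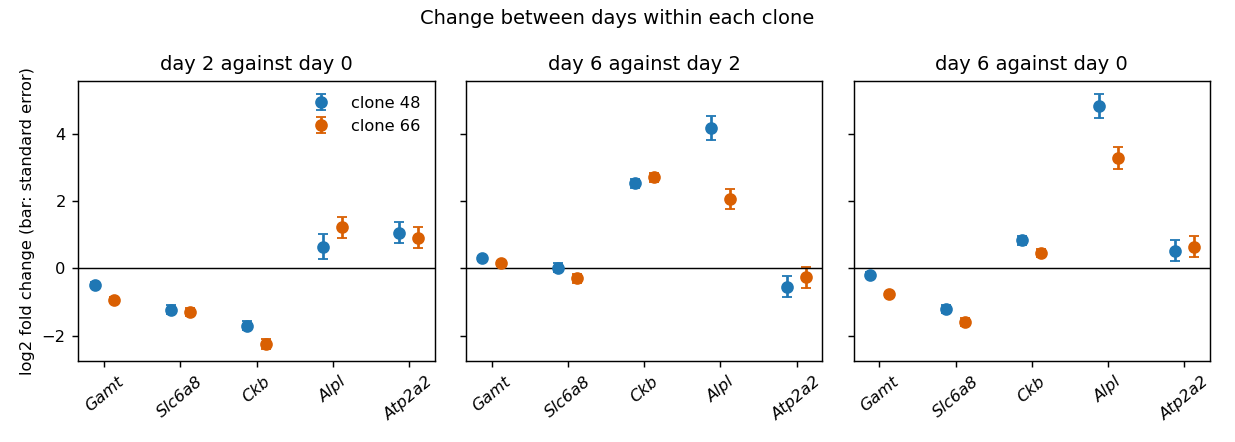
Log2 fold change between days of the 5 tested genes in clone 48 and in clone 66, with bars for the standard error, from the fit with a coefficient for each clone, genotype and day. *Alpl* rose by 4.19 in clone 48 and by 2.07 in clone 66 between days 2 and 6, and *Gamt* fell by 0.48 in clone 48 and by 0.93 in clone 66 between days 0 and 2.

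The size of the changes over time differed between clones for *Alpl* and *Gamt*. From day 2 to day 6, *Alpl* rose 18.2-fold in clone 48 and 4.19-fold in clone 66, a difference of -2.12 on the log2 scale (SE 0.447, adjusted p = 0.00255, edgeR), and it was 1 of the 5 tested genes called against 6.18% of all genes tested. The ratios of day 6 to day 2 in same-numbered pairs lay between 16.2 and 21.4 in clone 48 and between 3.01 and 6.69 in clone 66, and did not overlap. From day 0 to day 6 the difference for *Alpl* was -1.54 (SE 0.459, adjusted p = 0.0565, edgeR), and with the replicate number as a block it was -1.56 (SE 0.257, adjusted p = 0.000156, edgeR). It also passed with DESeq2 (adjusted p = 0.0197), with library size alone (adjusted p = 0.0422), with no filter (adjusted p = 0.00417), and without the third *Rxra*SA library of clone 48 (adjusted p = 0.0221), the first *Rxra*SA library of clone 66 (adjusted p = 0.023) or the second *Rxra*WT library of clone 66 (adjusted p = 0.0496), all of day 0.

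*Gamt* fell more in clone 66. From day 0 to day 2 the difference was -0.44 on the log2 scale (SE 0.107, adjusted p = 0.00831, edgeR), with ratios of day 2 to day 0 between 0.481 and 0.625 in clone 66 and between 0.659 and 0.773 in clone 48, where *Gamt* was the only one of the 5 called against 6.84% of all genes tested. From day 0 to day 6 the difference was -0.59 (SE 0.107, adjusted p = 0.0009, edgeR), again 1 of the 5 against 3.85%. Without the filter, when 36853 genes were tested, neither passed (adjusted p = 0.386 and 0.128, edgeR). For *Ckb* from day 0 to day 2, the difference was -0.55 (SE 0.189, adjusted p = 0.0799, edgeR), with the replicate block -0.53 (SE 0.174, adjusted p = 0.0429, edgeR), and without the first *Rxra*WT library of clone 48 at day 2 -0.64 (adjusted p = 0.0214, edgeR). *Slc6a8* and *Atp2a2* did not pass between any pair of days.

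Other genes of the same pathways were taken from lists. Between days 0 and 6, 32.9% of all genes tested rose and 35.4% fell, which is the share to set beside the counts below. Of 16 genes of creatine precursor supply and its methyl and amino acid donors, 13 were tested. Between days 0 and 6, 3 rose, 3 fell and 7 did not pass, with a median log2 fold change of -0.14 beside -0.03 over all genes tested. *Ass1*, of arginine synthesis, fell by 2.36 on the log2 scale from a median of 84.8 CPM to 16.4, and *Arg2*, an arginase, fell by 1.64. *Shmt2*, which makes glycine in mitochondria, rose 4.11-fold to day 2 and was 1.47-fold above day 0 at day 6. *Mat2a*, which makes the methyl donor used by GAMT, rose from a median of 225.4 CPM to 559.9 at day 2 and was at 324.2 at day 6.

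Of 6 relatives or partners of *Alpl*, 3 were tested. *Phospho1*, a phosphatase known from bone mineralization, rose 18.6-fold from day 0 to day 6 (log2 fold change 4.22, SE 0.255, adjusted p = 1.55e-16, edgeR), with 0.172 to 0.848 CPM at day 0 and 3.05 to 13.3 at day 6. *Enpp1*, which makes pyrophosphate, fell by 1.44 and *Ank*, which exports it, by 0.84 on the log2 scale.

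Of 8 further calcium pumps and exchangers, 7 were tested, of which 3 rose, 3 fell and 1 did not pass between days 0 and 6. *Atp2b4*, a pump of the plasma membrane, rose 19.3-fold from a median of 1.04 CPM to 19.8, and *Atp2b1*, another such pump, fell by 1.01 on the log2 scale from a median of 313.1 to 160.1. *Slc8a1*, the sodium-calcium exchanger, fell by 2.53 from a median of 41.5 CPM to 8.59. Of 17 genes of calcium release, 12 were tested, with 5 up, 5 down and 2 not passing. In addition to the receptors above, *Tmem38b*, a counter-ion channel of the endoplasmic reticulum, rose by 0.60, and *Fkbp1b*, a binding protein of ryanodine receptors, fell by 1.58. Of 8 SERCA regulators, 3 were tested. *S100a1* rose by 0.91, *Calr*, a calcium-binding chaperone, fell by 0.27 and the third did not pass. Of 11 genes of store-operated and mitochondrial calcium entry, all 11 were tested, with 4 up, 6 down and 1 not passing. *Vdac1* rose by 1.27 and *Orai1* by 0.82, while *Orai2* fell by 1.56. Each of these lists held genes that rose and genes that fell, which does not set them apart, since 32.9% of all genes tested rose and 35.4% fell. The medians of log2 fold change of these calcium lists lay between -0.18 and 0.24, beside -0.03 over all genes tested.

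Over the 36 libraries, the log2 CPM of *Ckb* was most like that of *Lctl* (Pearson's r = 0.977), *Cdc25b* (0.965) and *Acy3* (0.961), among tested genes averaging 3 or more on the log2 CPM scale. *Alpl* was most like *Gypc* (0.971), *Gpi1* (0.952) and *Slc46a1* (0.951). *Slc6a8* was most like *F2r* (0.969), *Sf3b2* (0.968) and *Vim* (0.965), and *Gamt* most like *Eno3* (0.916), *Ak1* (0.906) and *Gper1* (0.901). *Atp2a2* was most like *Pitpnb* (0.972) and *Txn2* (0.971). Among the 5 genes themselves, *Gamt* and *Slc6a8* were the most alike (r = 0.808), *Slc6a8* and *Alpl* were opposed (r = -0.607), and *Atp2a2* was opposed to *Gamt* (r = -0.491), *Slc6a8* (r = -0.462) and *Ckb* (r = -0.395). These values describe 36 libraries that share days, clones and scaling, and the differences between days enter all of them. For *Atp2a2* the wide spread within days enters as well, in which the library numbered 3 was highest in 12 of 12 groups. How much of each r came from days, clones or replicate numbers was not tested.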

How the data were processed

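RNA was sequenced from 36 libraries. The authors aligned paired reads with STAR 2.7.0d to GRCm38 and counted pairs per GENCODE M21 gene, over exons, by featureCounts 1.6.2. The deposited counts were not normalized. Strand was not used, and pairs assigned to several genes were left out. All 55536 identifiers matched GENCODE M21. Groups, clones and replicate numbers came from the labels. No pair of replicates was a duplicate (chi-square per degree of freedom between 12.0 and 188.1 over 36 pairs).

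Genes were filtered with filterByExpr (minimum count 10), scaled by TMM and tested with the quasi-likelihood test of edgeR 4.0.16 in R 4.3.3, in its earlier form, with Benjamini-Hochberg adjustment over 16723 genes at 0.05. The model had 6 coefficients for genotype and day and a clone term, as in the methods of the study. Clone comparisons used 12 coefficients for clone, genotype and day. CPM and RPKM were computed from TMM-scaled counts, with exon lengths from the files. Errors are standard errors of the fit or SDs over libraries, and 3 counts were taken as the floor.

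Same-numbered libraries of the 2 genotypes deviated together within a clone and day (18 pairs, correlation between 0.176 and 0.930 over 9381 genes). The replicate number was therefore also fitted as a block. For changes between days, the block and the same-numbered pairs take the number as linked across days, which was not tested. This pairing comes from the data, not from the labels.

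Alternatives were library size or RLE factors as the scaling, DESeq2 1.42.0, other filters, other model terms and the omission of each library. The tests were tried on simulated counts, drawn independently and so without the spread that same-numbered libraries shared. This trial cannot show how the tests treat such spread. Promoter windows came from RefSeq, of which 7 of the 9 genes had at least 1. The 9 genes and the lists were chosen with earlier results of these data known. Named from each list were up to 2 called genes each way with the largest change between days 0 and 6 and an average log2 CPM of at least 0, and for each tested gene the 3 genes of most similar pattern. The TATA, CCAAT and GC box motifs were chosen once values were known. Figures were drawn with matplotlib 3.10.9. Some genes that this rule names are not reported here.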

Additional observations from a re-analysis of the deposited data

Results flagged for a closer look

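The change over time differed between clone 66 and clone 48 in 3 instances, each by a test of the difference itself (edgeR's quasi-likelihood test, all genes adjusted together). For *Gamt*, the difference in log2 fold change was -0.443 from day 0 to day 2 and -0.586 from day 0 to day 6. For *Alpl*, it was -2.12 from day 2 to day 6. Clone and library pool coincide and cannot be told apart. Dixon's criterion marked 0 of 30 groups of 6 libraries of a genotype and day. Each of these groups holds both clones, and where the clones differ, as for *Alpl* and *Ckb* at day 2, their gap widens the range so that a single library could hardly be marked, and groups of 3 libraries within a clone were not checked.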

How the results depend on the processing

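No direction was reversed for any called value. Among the 5 tested genes, the count of calls at day 6 against day 2 went from 3 to 4 with the replicate block, and that at day 6 against day 0 from 5 to 4 with library size alone, both through *Atp2a2*. Between clones at day 6, the count of 2 became 1 without a filter, and 3 with library size alone, with the threshold of 1 CPM and with DESeq2. For the change from day 0 to day 2, the count of 1 became 0 without a filter and 2 with the replicate block. For the change from day 0 to day 6, the count of 1 became 2 with library size alone, with DESeq2 and with the replicate block. With each library left out in turn, these counts lay between 1 and 2 for clone 66 against clone 48 at day 6, between 1 and 2 for the change from day 0 to day 2, and between 1 and 2 for the change from day 0 to day 6, and between 3 and 4 for day 6 against day 2. The calls involved are given beside each gene, and the replicate block (the pairing by replicate number) changed no other call. Without a filter, 36853 genes were tested in place of 16723, and the cause of the other shifts was not tested. The block could not be fitted to differences between clones on a single day, since each block lies within 1 clone. The share of *Atp2a2* among SERCA RNA at day 0 was 98.7% by counts in place of 98.1% per length.

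With library size alone, the center of all genes' log2 fold changes (their median) went from -0.02 to -0.27 at day 2 against day 0 and from -0.03 to -0.22 at day 6 against day 0, and the share of higher values among called genes from 48.9% to 33.6% and from 48.2% to 34.9%. It moved from 51.2% to 41.0% for clone 66 against clone 48 at day 6 and from 54.7% to 43.3% for the clone difference from day 0 to day 6. The direction of the called values of the 5 genes did not depend on it. Counts were low for *Ckb* at day 2 (27 to 82 per library) and *Alpl* at day 0 (11 to 164), and too low in 4 of the 9 genes for a test. A part of sequencing depth in this was not tested.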
